A study of Mus musculus with 9 samples.

Results

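COMB, the treatment of glioma-bearing mice with the arginase inhibitor OAT-1746 together with an antibody against PD-1, was compared with the control treatment (CTR) by RNA sequencing of CD11b+ cells sorted by FACS from the tumor-bearing hemispheres of the brain. The libraries were chosen by their treatment label alone, and all 3 COMB and both CTR libraries were compared, 5 of the 9 in the series. The other 4 are 2 of OAT-1746 alone and 2 of anti-PD-1 alone. All mice were male C57BL/6J, aged 10 to 12 weeks at the start, and carried GL261 glioma cells expressing tdTomato and luciferase in the striatum. CTR mice were given saline. COMB mice were given OAT-1746 (50 mg/kg) and, between days 8 and 14 after implantation, 2.5 mg/kg of the antibody, the doses also used for each agent alone. The study's methods place the collection of the cells at day 28 and a legend places it at day 21. Whether a library comes from 1 mouse or from pooled mice is not stated. Of 21890 protein-coding genes listed, 12538 had enough counts to be tested. Levels are in CPM, the counts of a gene scaled to a common library total, after TMM scaling, which corrects for depth and composition. Differences are log2 fold changes of the 3 COMB against the 2 CTR libraries from edgeR's quasi-likelihood fit. Their standard error (SE) was derived from the test, as the absolute log2 fold change divided by the square root of its F statistic. It thus restates the test and is no separate measure of spread. The fit held all 9 libraries, so SE and p also draw on the spread within OAT-1746 and anti-PD-1.

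CD11b, the integrin subunit encoded by Itgam, is carried by microglia, by macrophages and monocytes that enter the tumor from blood, by neutrophils and by many NK cells. Arginases hydrolyse arginine to ornithine and urea, and nitric oxide synthases use the same amino acid to make nitric oxide, so both enzymes of myeloid cells draw on the arginine that T cells need to divide. PD-1 is an inhibitory receptor of activated lymphocytes, and its ligands PD-L1 and PD-L2 are made by macrophages and other cells. Macrophages and microglia respond to a stimulus within minutes by transcribing immediate early genes, a set of transcription factors and feedback regulators whose mRNAs are short-lived.

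Between 13048075 and 17729568 read pairs were counted per library: 17490386 and 17729568 for CTR replicates 1 and 2, and 13048075, 16144518 and 14806017 for COMB replicates 1, 2 and 3. Values below are given in this order. The sorted marker Itgam stood at 302 and 369.5 CPM in CTR and 366, 307 and 328 CPM in COMB, and the leukocyte marker Ptprc at 708 and 676 CPM and 506, 438 and 553 CPM. Csf1r, the receptor on which microglia and macrophages depend, stood at 6299 and 7839 CPM and 8849, 6926 and 7446 CPM. Both groups thus held myeloid RNA at high level, as the label says. The 8 pan-myeloid genes together made up 13528 and 16049 CPM in CTR and 15529, 14245 and 14671 CPM in COMB, and Csf1r was the most abundant of them per kilobase of exon. Their median log2 fold change was -0.060 (-0.14 without CTR replicate 1, 0.031 without CTR replicate 2 and -0.11 without COMB replicate 2), beside -0.00480 for all tested genes.

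The libraries of a group differed among themselves, and COMB replicate 1 stood apart from COMB replicates 2 and 3. Across the tested genes, log2 CPM of COMB replicates 2 and 3 had a Pearson's r of 0.989, and COMB replicate 1 had 0.978 and 0.983 with them. The CTR pair had 0.979. These describe the libraries and have no p-value, as genes do not vary independently. Of 9381 genes with a mean of at least 5 CPM in COMB, 113 (1.20%) lay at least 1 log2 unit lower in COMB replicate 1 than in the nearer of the other COMB libraries, and 20 (0.213%) as far above. COMB replicate 2 lay so far below for 21 genes (0.224%) and above for 0, and COMB replicate 3 for 0 in either direction. CTR replicate 1 held fewer microglial transcripts than the rest: the 13 microglia genes summed to 13296 and 21614 CPM in CTR and 24506, 18717 and 17701 CPM in COMB. Of the 13, 0 (6 without CTR replicate 2) were higher and 0 lower at an unadjusted p under 0.05. Their median log2 fold change was 0.25 (0.027 without COMB replicate 1, -0.11 without CTR replicate 1, 0.61 without CTR replicate 2 and 0.38 without COMB replicate 3). In RNA of sorted populations, fewer cells of a type and less RNA per cell cannot be told apart.

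The stimulus-response genes Tnf, Egr1 and Nr4a1 lay below CTR in all COMB libraries, and 5 of 7 astrocyte markers, 14 of 22 NK cell genes and 9 of 13 T cell genes lay above both CTR libraries in all of them. Nos2 and Pdcd1lg2, which encodes PD-L2, were high in COMB replicates 2 and 3 and close to CTR in COMB replicate 1. Cd274, which encodes PD-L1, lay slightly above both CTR libraries in COMB replicates 2 and 3 and below both in COMB replicate 1. No gene passed the test between COMB and CTR. In edgeR's quasi-likelihood test, 0 of 12538 genes (0%) had a Benjamini-Hochberg adjusted p under 0.05, and the smallest was 0.184, for Tnf. At an unadjusted p under 0.05, 403 genes (3.21%) were higher and 422 (3.37%) lower. With scaling by library size only, the same numbers were 457 and 277. Without CTR replicate 1 they were 343 and 207, without COMB replicate 2 261 and 207, and without COMB replicate 3 258 and 190. In 1518 genes (12.1%) all COMB libraries lay above both CTR libraries, and in 1978 (15.8%) all lay below. DESeq2's Wald test called 35 genes at an adjusted p under 0.05, 19 of them higher (0.152%) and 16 lower (0.128%), and in each of them the COMB and CTR libraries did not overlap. When edgeR was fitted to the CTR and COMB libraries alone, 5 genes were called (0.0399%), each of them lower in COMB: Tnf, Egr1, Nfkbiz, Nr4a1 and Fosb. limma voom, and edgeR without a filter on low counts, each called the same 2 genes, Tnf and Egr1. DESeq2 and the fit of the CTR and COMB libraries alone shared 4 genes. A gene is described below as higher or lower by the position of its libraries, and none is said to have passed edgeR's test against CTR.

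Tnf, Egr1 and Nr4a1, which macrophages transcribe within minutes of a stimulus, were lower in all COMB libraries than in CTR. Tnf, which encodes the inflammatory cytokine TNF, stood at 123 and 151 CPM in the CTR libraries and 46.5, 43.2 and 36.9 CPM in the COMB libraries. The zinc finger transcription factor Egr1 stood at 767 and 851 CPM in the CTR libraries and 224, 231 and 256 CPM in the COMB libraries, and the orphan nuclear receptor Nr4a1 at 253 and 228 CPM in the CTR libraries and 66.0, 49.5 and 64.6 CPM in the COMB libraries. For all 3 genes the highest COMB library lay far below the lower CTR library. Their log2 fold changes were -1.70 (SE 0.20), -1.77 (SE 0.24) and -2.0 (SE 0.41), with edgeR adjusted p of 0.184, 0.268 and 0.631. DESeq2's adjusted p was 1.21e-08, 3.63e-08 and 0.00210, and over all alternatives it ran from 1.21e-08 to 0.999 for Tnf, 3.63e-08 to 1.000 for Egr1 and 0.00210 to 1.000 for Nr4a1. Tnf (ENSMUSG00000024401) lies at chr17:35199381-35202007 and Nr4a1 (ENSMUSG00000023034) at chr15:101254269-101274795 of GRCm38.

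**Figure D1:**
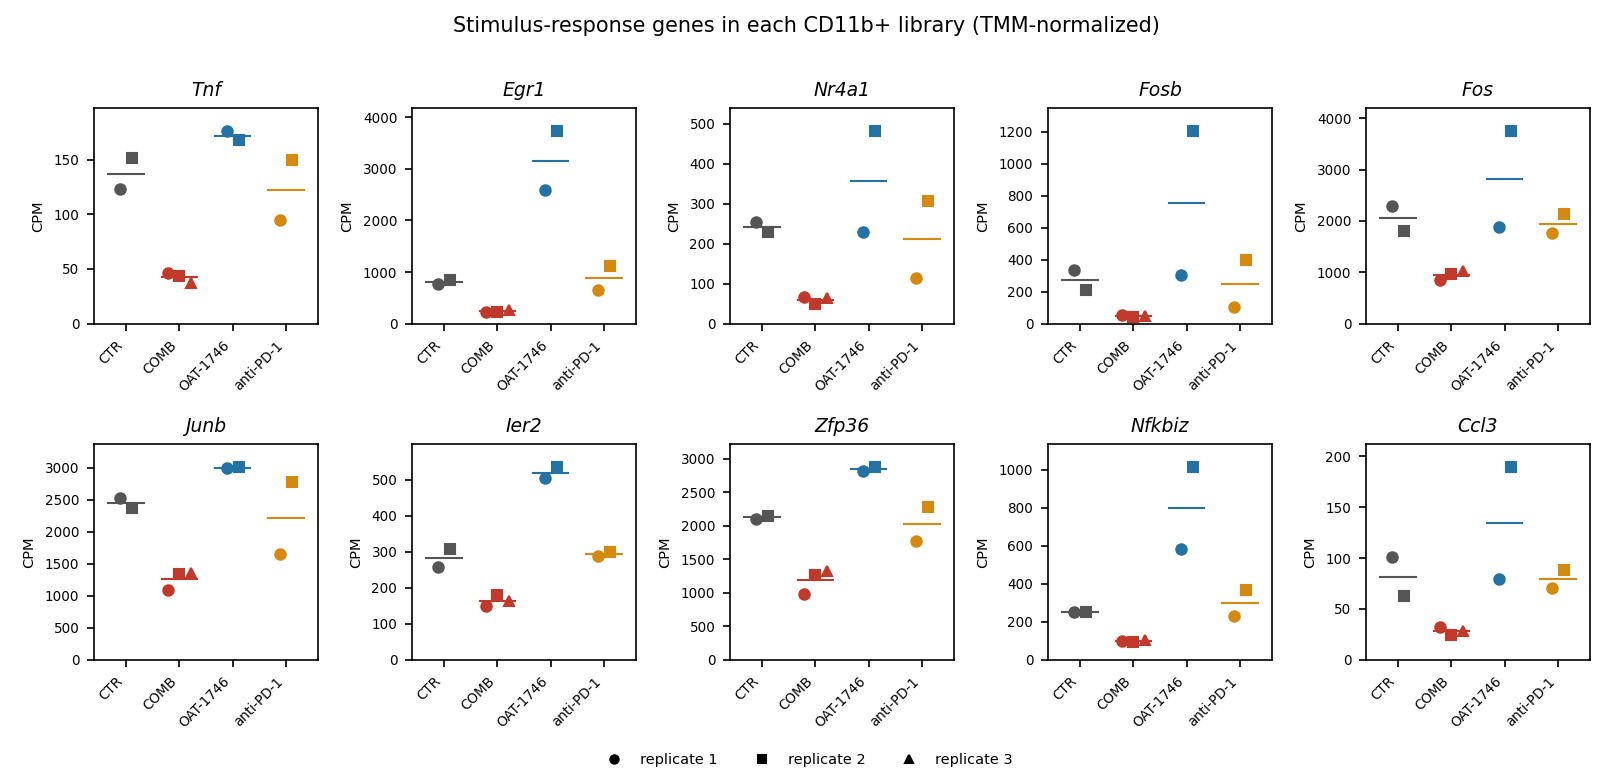
Level in CPM (linear axis from 0) of 10 stimulus-response genes in each library, by group, with the marker shape giving the replicate and the line the group mean. In every panel the 3 COMB points lie below both CTR points.

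4 AP-1 subunit genes and 3 other early genes lay on the same side. Fosb stood at 332 and 208 CPM in the CTR libraries and 53.4, 43.0 and 44.9 CPM in the COMB libraries, and Fos at 2297 and 1803 CPM in the CTR libraries and 854, 968 and 1020.0 CPM in the COMB libraries. Junb stood at 2520.5 and 2365 CPM in the CTR libraries and 1092, 1331 and 1356 CPM in the COMB libraries, and Jun at 1412 and 1244 CPM in the CTR libraries and 821, 671 and 718 CPM in the COMB libraries. These genes encode the subunits that pair to form AP-1, and no COMB library overlapped the CTR libraries in any of them. Ier2, an immediate early gene, stood at 257 and 307 CPM in the CTR libraries and 148, 179 and 162 CPM in the COMB libraries. Zfp36, whose product tristetraprolin destabilises mRNAs such as that of Tnf, stood at 2099 and 2151 CPM in the CTR libraries and 983, 1267 and 1317 CPM in the COMB libraries. Nfkbiz, which encodes the nuclear IκB family member IκBζ, stood at 253 and 249.5 CPM in the CTR libraries and 98.6, 93.2 and 103 CPM in the COMB libraries. The 3 COMB libraries lay closer to each other than to either CTR library in each of these 7 genes. Over these 7 and the 3 above, the log2 fold changes ran from -2.52 to -0.79 (SE 0.15 to 0.61), edgeR's adjusted p from 0.184 to 0.673 and DESeq2's from 1.21e-08 to 0.111. Under all alternatives their log2 fold changes kept their sign, -2.82 to -0.66, with adjusted p of 1.21e-08 to 1.000.

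The 300 bases around the start of 4 of these genes are shown because the genes lay on the same side together: Tnf and the nuclear factors Fos, Fosb and Nr4a1. The sequences are RefSeq promoter windows of GRCm38.p6, from 250 bases before to 50 after the start: Tnf chr17:35201958-35202257 and Fosb chr7:19309996-19310295 on the minus strand, Fos chr12:85473640-85473939 and Nr4a1 chr15:101266596-101266895 on the plus strand. Capitals mark TGACG, or CGTCA for the other strand, the core of the cAMP response element.
Tnf: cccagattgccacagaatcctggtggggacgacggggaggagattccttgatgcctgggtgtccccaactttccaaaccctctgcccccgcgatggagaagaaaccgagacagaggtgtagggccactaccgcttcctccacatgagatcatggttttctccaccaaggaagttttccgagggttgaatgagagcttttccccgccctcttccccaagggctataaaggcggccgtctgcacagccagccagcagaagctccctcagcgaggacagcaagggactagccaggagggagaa
Fos: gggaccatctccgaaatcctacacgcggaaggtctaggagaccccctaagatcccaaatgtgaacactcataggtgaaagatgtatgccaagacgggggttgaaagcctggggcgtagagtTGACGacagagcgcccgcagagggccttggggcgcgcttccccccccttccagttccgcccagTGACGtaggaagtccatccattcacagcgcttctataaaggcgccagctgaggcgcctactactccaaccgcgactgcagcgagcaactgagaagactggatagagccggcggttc
Fosb: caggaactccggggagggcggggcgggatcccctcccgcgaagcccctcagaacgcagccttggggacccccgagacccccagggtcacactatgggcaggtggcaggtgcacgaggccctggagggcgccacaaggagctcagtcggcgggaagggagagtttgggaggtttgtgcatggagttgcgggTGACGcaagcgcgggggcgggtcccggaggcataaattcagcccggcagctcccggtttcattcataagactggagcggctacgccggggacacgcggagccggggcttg
Nr4a1: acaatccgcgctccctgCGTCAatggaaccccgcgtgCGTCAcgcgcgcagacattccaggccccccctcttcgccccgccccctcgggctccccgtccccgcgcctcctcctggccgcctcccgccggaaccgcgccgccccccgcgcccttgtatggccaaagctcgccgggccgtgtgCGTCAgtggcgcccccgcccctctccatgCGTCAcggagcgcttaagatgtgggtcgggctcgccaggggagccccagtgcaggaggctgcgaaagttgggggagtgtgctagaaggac
The core occurs 4 times in the window of Nr4a1, 2 times in that of Fos, 1 time in that of Fosb and 0 times in that of Tnf. Of 32817 such mouse windows, 20.8% hold at least 1 core on either strand, 5.01% at least 2 and 0.232% at least 4. Of the 24 immediate early transcription factor genes listed, 19 had at least 1 window: 5 for Egr2, 3 for Maff and 1 for each other gene. In any window of a gene, the core was found for 13 of the 19 (23% of all 26994 genes with a window), the full element (TGACG followed directly by TCA) for 2 (2.03%), a CArG box for 1 (1.81%), Egr2, and a κB motif for 8 (9.55%). No window of Egr1 or Ier2 was searched, nor any base more than 250 before a start. A missing match thus covers these windows only. A match describes the letters of the window and shows no binding.

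As a list, the 22 tested immediate early transcription factors had a median log2 fold change of -0.83, and 17 of them lay below both CTR libraries in all COMB libraries (15.8% of all tested genes did). At an unadjusted p under 0.05, 13 were lower and 0 higher, beside 3.37% and 3.21% of all tested genes. This list, like the others, was chosen with earlier results of these data known. Its counts describe these libraries and are no independent test. Their summed level was 10934 and 9859 CPM in CTR and 5345, 5794 and 5933 CPM in COMB, and Junb was the most abundant per kilobase. Egr2 and Egr3, relatives of Egr1, were among them. Egr2 stood at 41.6 and 14.8 CPM in the CTR libraries and 11, 5.15 and 5.74 CPM in the COMB libraries, and Egr3 at 13.9 and 8.88 CPM in the CTR libraries and 3.19, 2.71 and 3.97 CPM in the COMB libraries. In both genes CTR replicate 1 was the highest library of the 5. Of 18 MAPK phosphatases and other feedback regulators, 1 (0 without CTR replicate 2, 0 without COMB replicate 2 and 0 without COMB replicate 3) was higher and 6 lower, 10 lay below both CTR libraries, and the median was -0.26. Dusp1, a phosphatase that inactivates p38 and JNK and the most abundant of these per kilobase, overlapped, with 1268 and 1498 CPM in the CTR libraries and 1419, 1667 and 1613 CPM in the COMB libraries.

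Against OAT-1746 alone, many of these genes passed the test. OAT-1746 and anti-PD-1 were each compared with the same CTR libraries as COMB, so the values are given side by side. Egr1 stood at 2591 and 3730.0 CPM in the OAT-1746 libraries and 655 and 1117 CPM in the anti-PD-1 libraries, Nfkbiz at 580.4 and 1013 CPM and 230.4 and 368 CPM, and Jun at 2826 and 4376 CPM and 1587 and 2184 CPM. Both OAT-1746 libraries lay above both CTR libraries in these 3 genes, where the COMB libraries lay below, as in 427 (3.41%) of all tested genes; 200 (1.6%) lay the other way. The median log2 fold change of the 22 immediate early genes against CTR was -0.83 in COMB, 0.91 in OAT-1746 and 0.19 in anti-PD-1. In the direct comparison of COMB with OAT-1746, edgeR's quasi-likelihood test called 858 genes higher in COMB (6.84%) and 1121 lower (8.94%). Of the immediate early genes, 18 of 22 were called lower and 0 higher, with a median of -1.56. For Egr1 the log2 difference was -3.74 (SE 0.26, adjusted p 0.00148 in edgeR), for Nfkbiz -3.02 (SE 0.26, adjusted p 0.00322) and for Tnf -2.02 (SE 0.21, adjusted p 0.00528). All 10 genes of the plot and text above were called lower than in OAT-1746 (log2 difference -4.00 to -1.25, edgeR adjusted p 0.00148 to 0.0202). These genes were named by rules that use the same COMB libraries, which favours such calls.

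The number of calls against OAT-1746 depended on single libraries and on whether the replicate number was fitted as a block. The 1979 calls became 4033 without OAT-1746 replicate 1, 27 without OAT-1746 replicate 2, 2923 without COMB replicate 1, 14 without COMB replicate 2 and 5 without COMB replicate 3. The immediate early genes called lower became 17, 3, 18, 3 and 2 in the same order, with medians of -1.65, -1.23, -1.51, -1.61 and -1.59. In these fits a group left with 1 library was assumed to vary like the others. Called in all 5 of them were Egr1, Ier2, Nfkbiz, Map3k8, which encodes a kinase upstream of ERK, and Midn, the last 2 chosen after their values were seen. All other calls against OAT-1746, those given below included, were lost without COMB replicate 3. With the replicate number fitted as a block, the 1979 calls became 2, though these numbers do not pair the libraries. Against anti-PD-1, edgeR called 0 genes (0%), with 907 at an unadjusted p under 0.05 and 47 called by DESeq2. All 22 immediate early genes had a negative log2 difference there, with a median of -1.03. The comparison leaned that way: at edgeR's unadjusted p under 0.05, 659 of all tested genes were lower and 248 higher. All 27 type I interferon-stimulated genes and all 18 MAPK phosphatases and feedback regulators were negative there too, against 1 of 10 MHC class II genes. Without anti-PD-1 replicate 1, edgeR called 5 genes, which were Egr1, Tnf, Gadd45b, Nr4a3 and Pmaip1.

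Other lists moved between COMB and OAT-1746 too. The 7 tested of 13 mitochondrial genome genes, with mt-Co1 the most abundant per kilobase, summed to 22425 and 19604 CPM in OAT-1746 and 12921, 6392 and 7649 CPM in COMB (median -1.37, 3 called lower), and the 13 microglia genes to 28879.9 and 35736 CPM and 24506, 18717 and 17701 CPM (median -0.71, 3 called lower). Of the 6 mitochondrial genes not tested, 5 had 0 counts in every CTR and COMB library. Of 79 ribosomal protein genes, 57 were called higher, with a median of 0.81. Over all tested genes, 6.84% were called higher and 8.94% lower. Without OAT-1746 replicate 1, OAT-1746 replicate 2, COMB replicate 1, COMB replicate 2 and COMB replicate 3 in turn, the calls of these 3 lists became 2, 0, 5, 0 and 0, then 7, 0, 9, 0 and 0, then 72, 1, 66, 1 and 0. OAT-1746 replicate 2 stood apart, with a Pearson's r of 0.956 with its replicate and 0.911 to 0.946 with the other libraries. In it the 17 genes of monocytes and macrophages were low, with sums of 9087 and 1906 CPM in OAT-1746 and 9701, 11431 and 12086 CPM in COMB, as was their most abundant gene per kilobase, Lyz2 (3139.8 and 919 CPM in OAT-1746). None of the 17 was at 0 in a CTR or COMB library. Of them, 2 were called higher in COMB (14 without OAT-1746 replicate 1 and 0 without OAT-1746 replicate 2, COMB replicate 2 or COMB replicate 3), with a median of 0.62, and of 1.81 and 0.0025 without OAT-1746 replicates 1 and 2. The part of these lists in the result was not tested.

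Inhibitors and feedback genes of NF-κB, the transcription factor that drives inflammatory genes, were lower in part. Nfkbid, which encodes a nuclear IκB protein, stood at 52.3 and 36.8 CPM in the CTR libraries and 19, 17.9 and 19.2 CPM in the COMB libraries, and Rel, the c-Rel subunit, at 62.9 and 45.6 CPM in the CTR libraries and 34.0, 27.4 and 29.1 CPM in the COMB libraries. Tnfaip3, which encodes the inhibitor A20, stood at 346 and 325 CPM in the CTR libraries and 222, 241 and 281 CPM in the COMB libraries. In these 3 genes every COMB library lay below both CTR libraries, and their log2 fold changes were -1.25, -0.85 and -0.44. Nfkbia, which encodes IκBα, overlapped, with 472 and 561 CPM in the CTR libraries and 466, 658 and 589 CPM in the COMB libraries. Of the 15 NF-κB subunits and inhibitors, 0 were higher and 3 (1 without CTR replicate 1) lower at an unadjusted p under 0.05 (3.37% of all tested genes were lower), 5 lay below both CTR libraries (15.8% of all tested genes did), and the median was -0.12 (-0.057 without COMB replicate 1 and -0.20 without CTR replicate 2). The stress gene Gadd45b stood at 33.2 and 30.4 CPM in the CTR libraries and 19.6, 21.3 and 22.7 CPM in the COMB libraries, and Rasgef1b, which encodes an exchange factor for Ras-family GTPases, at 189.6 and 110.4 CPM in the CTR libraries and 63.8, 50.4 and 46.4 CPM in the COMB libraries. Neither overlapped between the groups. For Egr2, Egr3, Nfkbid, Rel, Gadd45b, Rasgef1b and Ccl4 together, log2 fold changes ran from -1.95 to -0.58 with edgeR adjusted p of 0.673 to 0.752, and all 7 were called lower than in OAT-1746 (edgeR adjusted p 0.0143 to 0.0386), none of them without COMB replicate 3. These 7 too were named by rules that use the same COMB libraries, which favours such calls.

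Other secreted signals lay on the side of Tnf in part. Ccl3, a chemokine for monocytes and T cells, stood at 101 and 62.8 CPM in the CTR libraries and 31.7, 24.6 and 27.9 CPM in the COMB libraries, and its neighbour in function Ccl4 at 138 and 93.7 CPM in the CTR libraries and 65.3, 73.8 and 64.4 CPM in the COMB libraries. All COMB libraries lay below both CTR libraries in both genes. Il1b, the cytokine IL-1β, stood at 792 and 556 CPM in the CTR libraries and 288, 454 and 483 CPM in the COMB libraries, with COMB replicate 1 the lowest library, and at 424 and 132 CPM in OAT-1746 and 237 and 1060.1 CPM in anti-PD-1, where the replicates lay far apart. The log2 fold changes were -1.54 (SE 0.34), -0.77 (SE 0.28) and -0.72 (SE 0.60), with edgeR adjusted p of 0.673, 0.752 and 0.814. DESeq2 called Ccl3 (adjusted p 0.0178, alternatives 0.0178 to 1.000). Of 14 cytokines tested, 0 were higher and 3 (1 without CTR replicate 2 and 1 without COMB replicate 3) lower (3.37% of all tested genes were lower), 7 lay below both CTR libraries (15.8% of all tested genes did), and the median was -0.33. Of 21 chemokine ligands, 2 (0 without CTR replicate 2, 0 without COMB replicate 2 and 0 without COMB replicate 3) were higher and 3 lower, with a median of -0.15 (-0.060 without COMB replicate 1, -0.050 without CTR replicate 1 and 0.058 without CTR replicate 2), and of 11 chemokine receptors 0 were higher and 1 lower. The receptor in that count was Cxcr4, the receptor of CXCL12.

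Apoe, Lpl, Ptger4, Cd69 and Cxcr4 were also lower. Apoe, the lipid carrier made in bulk by microglia and macrophages of diseased brain, stood at 2943 and 2326 CPM in the CTR libraries and 1271, 1121 and 1374 CPM in the COMB libraries. Lpl, a lipase that releases fatty acids from lipoproteins, stood at 51.2 and 47.1 CPM in the CTR libraries and 32.0, 9.83 and 14.4 CPM in the COMB libraries. The COMB libraries did not overlap CTR in either gene, and COMB replicate 1 held more Lpl than the other COMB libraries. Ptger4, a receptor of prostaglandin E2, stood at 72.8 and 56.9 CPM in the CTR libraries and 27.7, 35.7 and 34.0 CPM in the COMB libraries, and Cd69, an early activation antigen, at 48.5 and 32.5 CPM in the CTR libraries and 19.4, 19.3 and 20.9 CPM in the COMB libraries. Cxcr4 stood at 299 and 252 CPM in the CTR libraries and 105, 129 and 124 CPM in the COMB libraries. In Ptger4, Cd69 and Cxcr4 the highest COMB library lay well below the lower CTR library. Over these 5 genes the log2 fold changes ran from -1.39 to -1.0 (SE 0.17 to 0.41), edgeR's adjusted p from 0.631 to 0.689, DESeq2's from 8.82e-05 to 0.195, and that under all alternatives from 8.82e-05 to 1.000. Against the same CTR libraries, their fitted log2 fold changes were -1.55 to -0.72 in OAT-1746 and -0.65 to -0.048 in anti-PD-1. None of the 5 differed between COMB and OAT-1746 by edgeR's test (adjusted p 0.108 to 0.777). Of 15 genes of disease-associated microglia and lipid handling, 0 were higher and 2 lower (3.21% of all tested genes were higher and 3.37% lower), 6 lay below and 1 above both CTR libraries (15.8% and 12.1% of all tested genes), and the median was -0.16 (-0.35 without COMB replicate 1 and -0.094 without CTR replicate 1) in COMB, -1.15 in OAT-1746 and 0.017 in anti-PD-1.

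The next 6 genes were named because DESeq2 called them higher in COMB, and are grouped here because astrocytes express them. Bcan, which encodes the matrix proteoglycan brevican, stood at 2.34 and 5.88 CPM in the CTR libraries and 16.3, 14.5 and 11.3 CPM in the COMB libraries. Clu, the secreted chaperone clusterin, stood at 7.03 and 10.4 CPM in the CTR libraries and 29.8, 17.5 and 19.9 CPM in the COMB libraries. All COMB libraries lay above both CTR libraries in both genes, with COMB replicate 1 the highest of all 5. Gpr37l1, an orphan receptor, stood at 4.75 and 6.41 CPM in the CTR libraries and 20.5, 14.9 and 15 CPM in the COMB libraries. The bicarbonate transporter Slc4a4 stood at 1.56 and 2.24 CPM in the CTR libraries and 8.46, 4.55 and 5.10 CPM in the COMB libraries. COMB replicate 1 was again the highest library in both. Together with Ntrk2, which encodes the BDNF receptor TrkB, and Mlc1, a membrane protein of astrocyte endfeet, these 6 genes had log2 fold changes of 1.36 to 1.77 (SE 0.30 to 0.42), edgeR adjusted p of 0.631 to 0.673 and DESeq2 adjusted p of 0.00342 to 0.0385, with 0.00342 to 1.000 over all alternatives. Against OAT-1746, edgeR's test called Bcan, Clu and Gpr37l1 higher in COMB. All 3 calls were lost without OAT-1746 replicate 2, COMB replicate 2 or COMB replicate 3, those of Clu and Gpr37l1 without COMB replicate 1 too, and that of Clu also without OAT-1746 replicate 1. It did not call Ntrk2, Slc4a4 and Mlc1 (log2 difference over the 6 genes 0.74 to 1.46, adjusted p 0.0337 to 0.197).

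The list of astrocyte markers held 7 other genes, all tested. At an unadjusted p under 0.05, 5 (3 without COMB replicate 1 and 2 without CTR replicate 1) were higher and 0 lower, 5 lay above both CTR libraries (12.1% of all tested genes did), and the median was 1.14 in COMB, 0.51 in OAT-1746 and 0.18 in anti-PD-1. Over all tested genes, 3.21% were higher and 3.37% lower at an unadjusted p under 0.05. Slc1a2, the main glutamate transporter of astrocytes, stood at 13.3 and 19.7 CPM in the CTR libraries and 50.3, 25.5 and 34.5 CPM in the COMB libraries. The water channel Aqp4 stood at 0.961 and 2.35 CPM in the CTR libraries and 6.01, 3.30 and 3.54 CPM in the COMB libraries, and Gja1, which encodes connexin 43, at 1.98 and 4.47 CPM in the CTR libraries and 12.8, 5.68 and 7.02 CPM in the COMB libraries. CTR replicate 1 was the lowest library and COMB replicate 1 the highest in each of these. Atp1b2, a sodium pump subunit, and Aldh1l1, an enzyme of folate metabolism, were the other 2 with all COMB libraries above CTR, and over the 5 genes edgeR's adjusted p ran from 0.673 to 0.752. Gfap, the intermediate filament of reactive astrocytes, lay the other way, with 5.17 and 6.12 CPM in the CTR libraries and 3.71, 4.29 and 2.84 CPM in the COMB libraries, and Slc1a3 overlapped, with 50.04 and 86.2 CPM in the CTR libraries and 104, 89.3 and 84.5 CPM in the COMB libraries. The summed level of the list was 83.2 and 139 CPM in CTR, 212, 156 and 161 CPM in COMB, 175 and 241 CPM in OAT-1746 and 123 and 108 CPM in anti-PD-1. Slc1a3 was its most abundant gene per kilobase, and no member was at 0 in any CTR or COMB library. The cells had been sorted for CD11b, a marker of myeloid cells and many NK cells. The part of astrocyte RNA in the higher genes was not tested.

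**Figure D2:**
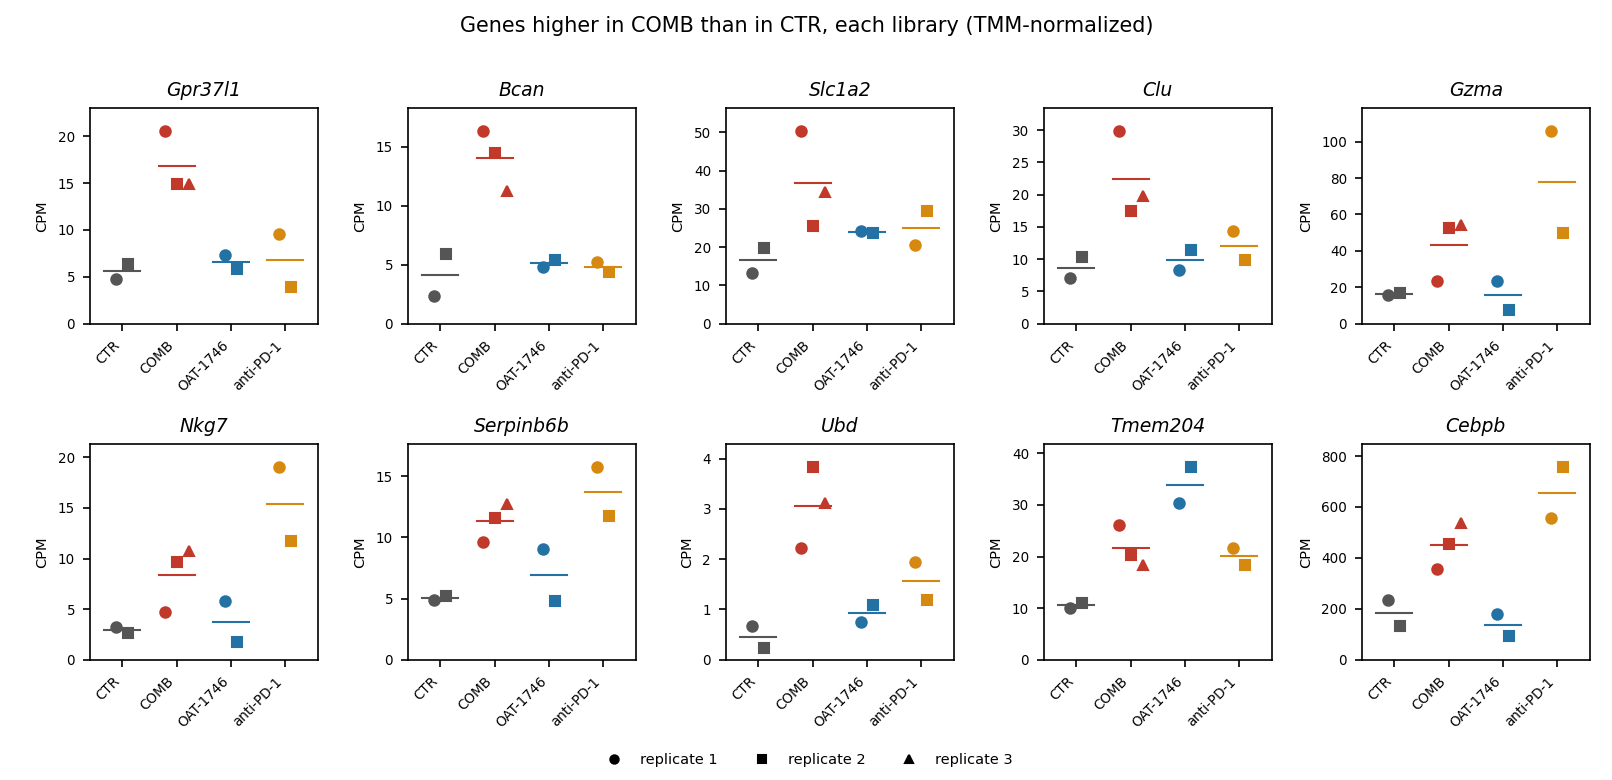
Level in CPM (linear axis from 0) of 10 genes higher in COMB, in each library by group, with the marker shape giving the replicate and the line the group mean. The COMB points of each gene lie above both CTR points, COMB replicate 1 being the highest COMB library for Gpr37l1, Bcan, Slc1a2 and Clu and the lowest for Gzma and Nkg7.

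Other cell types of brain and tumor gave smaller or mixed differences. Of 7 endothelial genes, 2 (1 without COMB replicate 1, 0 without CTR replicate 2, 1 without COMB replicate 2 and 1 without COMB replicate 3) were higher and 0 lower (3.21% of all tested genes were higher and 3.37% lower), 4 lay above both CTR libraries (12.1% of all tested genes did), and the median was 0.58 (0.38 without CTR replicate 2). Their sum was 159.6 and 129 CPM in CTR and 192, 154 and 175 CPM in COMB. Cldn5, the claudin of the blood-brain barrier and the most abundant of them per kilobase, stood at 17.4 and 8.94 CPM in the CTR libraries and 33.9, 30.0 and 24.4 CPM in the COMB libraries, and Pecam1, an adhesion molecule of vessels, at 34.7 and 28.3 CPM in the CTR libraries and 43.5, 47.1 and 54.3 CPM in the COMB libraries. The COMB libraries lay above CTR in both genes. Of 9 oligodendrocyte genes, 0 were higher and 0 lower, with sums of 318 and 366 CPM in CTR and 491, 296 and 363 CPM in COMB, and a median of 0.35 (-0.084 without COMB replicate 1, 0.095 without CTR replicate 1, 0.58 without CTR replicate 2 and 0.53 without COMB replicate 2). Of 7 neuron genes, 0 were higher and 1 (0 without CTR replicate 2, 0 without COMB replicate 2 and 0 without COMB replicate 3) lower, with a median of -0.092 (-0.26 without COMB replicate 1, -0.40 without CTR replicate 1, 0.18 without COMB replicate 2 and -0.48 without COMB replicate 3) and sums of 12.6 and 22.8 CPM and 15.4, 11.6 and 13.6 CPM. Of the 7 glioma and precursor genes, 5 erythroid genes and 5 tested B cell genes, 0 were higher or lower at an unadjusted p under 0.05.

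Genes of cytotoxic lymphocytes lay above CTR in COMB and in anti-PD-1. Gzma, which encodes granzyme A, stood at 16.0 and 16.6 CPM in the CTR libraries and 23.3, 52.8 and 54.1 CPM in the COMB libraries, against 106 and 49.9 CPM in anti-PD-1 and 23.7 and 7.61 CPM in OAT-1746. Nkg7, a granule protein of NK and T cells, stood at 3.24 and 2.65 CPM in the CTR libraries and 4.67, 9.63 and 10.7 CPM in the COMB libraries, against 19 and 11.8 CPM in anti-PD-1. All COMB libraries lay above CTR in both genes, and COMB replicate 1 lay nearest to the CTR libraries. Eomes, a transcription factor of NK and effector T cells, stood at 0.0601 and 0.412 CPM in the CTR libraries and 1.26, 1.58 and 1.28 CPM in the COMB libraries, and here the COMB libraries lay close together. The log2 fold changes of the 3 genes ran from 1.41 to 2.5 (SE 0.53 to 0.76), with edgeR adjusted p of 0.690 to 0.752. Klrc2, an activating receptor of NK cells, had 0 and 0 counts in the CTR libraries against 12, 12 and 14 in COMB. At a floor of 3 counts per CTR library, this is at least 5.00-fold higher, a bound that covers counting error only. DESeq2 called it (adjusted p 0.0442, alternatives 0.0442 to 1.000). Reads of related receptor genes of its cluster may be assigned with less certainty.

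Of the 22 NK cell genes, 8 (3 without CTR replicate 1, 2 without CTR replicate 2, 4 without COMB replicate 2 and 4 without COMB replicate 3) were higher at an unadjusted p under 0.05 and 0 lower. Over all tested genes, 3.21% were higher and 3.37% lower at that p. In 14 of 22 all COMB libraries lay above both CTR libraries, beside 12.1% of all tested genes. The median log2 fold change against CTR was 1.23 in COMB, 2.29 in anti-PD-1 and 0.11 in OAT-1746. Summed levels were 97.7 and 103 CPM in CTR, 114, 211 and 225 CPM in COMB, 441 and 255 CPM in anti-PD-1 and 139 and 37.3 CPM in OAT-1746, with Gzma the most abundant per kilobase. COMB replicate 1 thus lay near the CTR sums, and OAT-1746 replicate 2 below them. All 22 had a negative log2 difference between COMB and anti-PD-1, with a median of -1.11, and edgeR called 0 of them, as it called 0 genes in that comparison. It leaned negative, with 659 of all tested genes lower and 248 higher at edgeR's unadjusted p under 0.05. How far the number of NK cells or T cells in the sort enters these levels was not tested.

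Transcripts of T cells were scarce, and the COMB libraries held more of some of them than CTR. Of 13 tested members of a list of 16, 4 (2 without CTR replicate 2, 2 without COMB replicate 2 and 2 without COMB replicate 3) were higher and 0 lower (3.21% of all tested genes were higher), 9 lay above both CTR libraries (12.1% of all tested genes did), and the median was 1.22 (1.90 without CTR replicate 1) in COMB, -0.012 there among genes with at least 10 counts in every library, and 1.82 in anti-PD-1. The sums were 17.1 and 15.5 CPM in CTR and 23.7, 22.2 and 26.2 CPM in COMB, and Cd4, which macrophages also carry, was the most abundant per kilobase and lay below CTR in all COMB libraries. Thy1, a surface glycoprotein on this list, stood at 1.02 and 0.471 CPM in the CTR libraries and 2.23, 2.11 and 3.47 CPM in the COMB libraries. Cd3g, a chain of the T cell receptor complex, had 5 and 0 counts in the CTR libraries against 14, 14 and 11 in COMB. The related Cd3e, not tested for its low counts, had 1 and 0 counts in CTR against 5, 8 and 7 in COMB, and the regulatory T cell factor Foxp3 had 1 and 2 against 6, 9 and 12. Defining markers of T cells thus lay at or near 0 in CTR, and Cd3g and Cd3d were at 0 in at least 1 CTR library. Of the serpins that block granzymes, 2 lay higher in COMB too. Serpinb6b stood at 4.87 and 5.23 CPM in the CTR libraries and 9.64, 11.6 and 12.8 CPM in the COMB libraries, and Serpinb9b had 3 and 0 counts in CTR and 10, 22 and 30 in COMB, where reads of near-identical family members may be assigned with less certainty. Of the 4 granzyme-inhibiting serpins, 2 were higher and 0 lower, and the median was 0.76. Ubd, a ubiquitin-like modifier induced by interferon-γ and TNF, stood at 0.661 and 0.235 CPM in the CTR libraries and 2.23, 3.83 and 3.12 CPM in the COMB libraries, with a log2 fold change of 2.76 (SE 0.55), an edgeR adjusted p of 0.631 and a DESeq2 adjusted p of 0.00390 (alternatives 0.00390 to 1.000).

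Neutrophil genes differed between the CTR libraries about as much as between the groups. S100a8, a subunit of calprotectin, stood at 12.6 and 25.1 CPM in the CTR libraries and 40.3, 41.7 and 36.4 CPM in the COMB libraries, and its partner S100a9 at 22.2 and 48.9 CPM in the CTR libraries and 58.6, 80.0 and 64.7 CPM in the COMB libraries. Camp, the antimicrobial peptide cathelicidin, stood at 2.40 and 6.41 CPM in the CTR libraries and 8.08, 9.83 and 12.6 CPM in the COMB libraries. In all 3 genes the COMB libraries lay above CTR and CTR replicate 1 was the lowest. The log2 fold changes ran from 0.93 to 1.21 with edgeR adjusted p of 0.689 to 0.752. Of 11 neutrophil genes, 3 (0 without CTR replicate 1 and 8 without CTR replicate 2) were higher and 0 lower (3.21% of all tested genes were higher and 3.37% lower), 6 lay above both CTR libraries (12.1% of all tested genes did), and the median was 0.74 (0.13 and 1.65 when CTR replicates 1 and 2, respectively, were left out). Their sum was 329.8 and 521 CPM in CTR and 479, 483 and 481 CPM in COMB, and OAT-1746 alone had a like median (0.77). Of 17 genes of monocytes and macrophages, 0 were higher and 0 lower, with a median of -0.18 (-0.33 and 0.19 when CTR replicates 1 and 2, respectively, were left out). Their most abundant gene per kilobase, the lysozyme gene Lyz2, stood at 4793 and 4296 CPM in the CTR libraries and 3857, 2985 and 3153 CPM in the COMB libraries, and the monocyte antigen Ly6c2, chosen after its values were seen, at 303 and 692 CPM in the CTR libraries and 352, 372 and 330.4 CPM in the COMB libraries. Of the 9 genes of border-associated macrophages and the 11 dendritic cell genes, 0 were higher and 0 lower.

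Nos2, the inducible nitric oxide synthase, which uses arginine, stood at 16.9 and 19.5 CPM in the CTR libraries and 23, 184 and 210.2 CPM in the COMB libraries. COMB replicates 2 and 3 lay far above both CTR libraries, and COMB replicate 1 lay just above them. The log2 fold change was 2.93 (SE 0.91), with an edgeR adjusted p of 0.712 (alternatives 0.182 to 1.000). Nos2 (ENSMUSG00000020826) lies at chr11:78920787-78960254 of GRCm38. In the OAT-1746 libraries it stood at 28.9 and 16.5 CPM, and in the anti-PD-1 libraries at 16.0 and 70.9 CPM. The log2 difference between COMB and OAT-1746 was 2.61 (SE 0.90, edgeR adjusted p 0.0723). edgeR's test did not call it, but did without COMB replicate 1.

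Ass1 and Slc7a1, which serve the supply of arginine, differed less. Ass1, which encodes the enzyme that rebuilds arginine from citrulline, stood at 272 and 295 CPM in the CTR libraries and 295, 554 and 529 CPM in the COMB libraries, COMB replicate 1 lying at the level of CTR replicate 2, and at 244 and 27.0 CPM in OAT-1746. Slc7a1, the main arginine transporter of many cells, stood at 62.2 and 63.1 CPM in the CTR libraries and 54.6, 49.7 and 50.1 CPM in the COMB libraries, all COMB libraries lying slightly below CTR. Of 15 genes of arginine and polyamine metabolism, 2 (0 without CTR replicate 2) were higher and 0 lower at an unadjusted p under 0.05 (3.21% of all tested genes were higher and 3.37% lower), 3 lay above and 3 below both CTR libraries (12.1% and 15.8% of all tested genes), and the median was 0.12 (0.22 and 0.070 when CTR replicates 1 and 2, respectively, were left out) in COMB, -0.54 in OAT-1746 and 0.055 in anti-PD-1. Summed levels were 1240.2 and 1126 CPM in CTR and 1134, 2239 and 2186 CPM in COMB, so COMB replicate 1 lay at the level of CTR.

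Genes of the PD-1 axis showed the same division. Pdcd1lg2, which encodes the ligand PD-L2, stood at 13.1 and 6.65 CPM in the CTR libraries and 6.53, 42.8 and 40.8 CPM in the COMB libraries, and Cd274, which encodes PD-L1, at 227 and 144 CPM in the CTR libraries and 125, 260.0 and 280.2 CPM in the COMB libraries. Pdcd1, the receptor PD-1 itself, stood at 4.75 and 8.88 CPM in the CTR libraries and 6.60, 2.77 and 2.41 CPM in the COMB libraries. For both ligands COMB replicate 1 was the lowest of the 5 libraries and COMB replicates 2 and 3 the highest, and for Pdcd1 COMB replicates 2 and 3 were the lowest. The log2 fold changes were 1.61 (SE 0.69), 0.26 (SE 0.47) and -0.80 (SE 0.54), with edgeR adjusted p of 0.752, 0.920 and 0.789. Without CTR replicate 2 the value of Cd274 was -0.035. Tnfrsf9, the costimulatory receptor 4-1BB, stood at 1.62 and 2.24 CPM in the CTR libraries and 4.30, 6.67 and 9.71 CPM in the COMB libraries, and Cd276, the B7 family member B7-H3, at 52.6 and 50.7 CPM in the CTR libraries and 44.9, 32.2 and 33.7 CPM in the COMB libraries. The COMB libraries lay above CTR for Tnfrsf9 and below for Cd276, without overlap. Of 19 checkpoint and costimulatory genes, 2 (1 without CTR replicate 1, 1 without CTR replicate 2, 1 without COMB replicate 2 and 1 without COMB replicate 3) were higher and 1 (2 without COMB replicate 1, 0 without CTR replicate 1, 0 without COMB replicate 2 and 0 without COMB replicate 3) lower (3.21% of all tested genes were higher and 3.37% lower), and the median was 0.12 (0.060 without COMB replicate 1, 0.19 without CTR replicate 2 and 0.072 without COMB replicate 3).

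**Figure D3:**
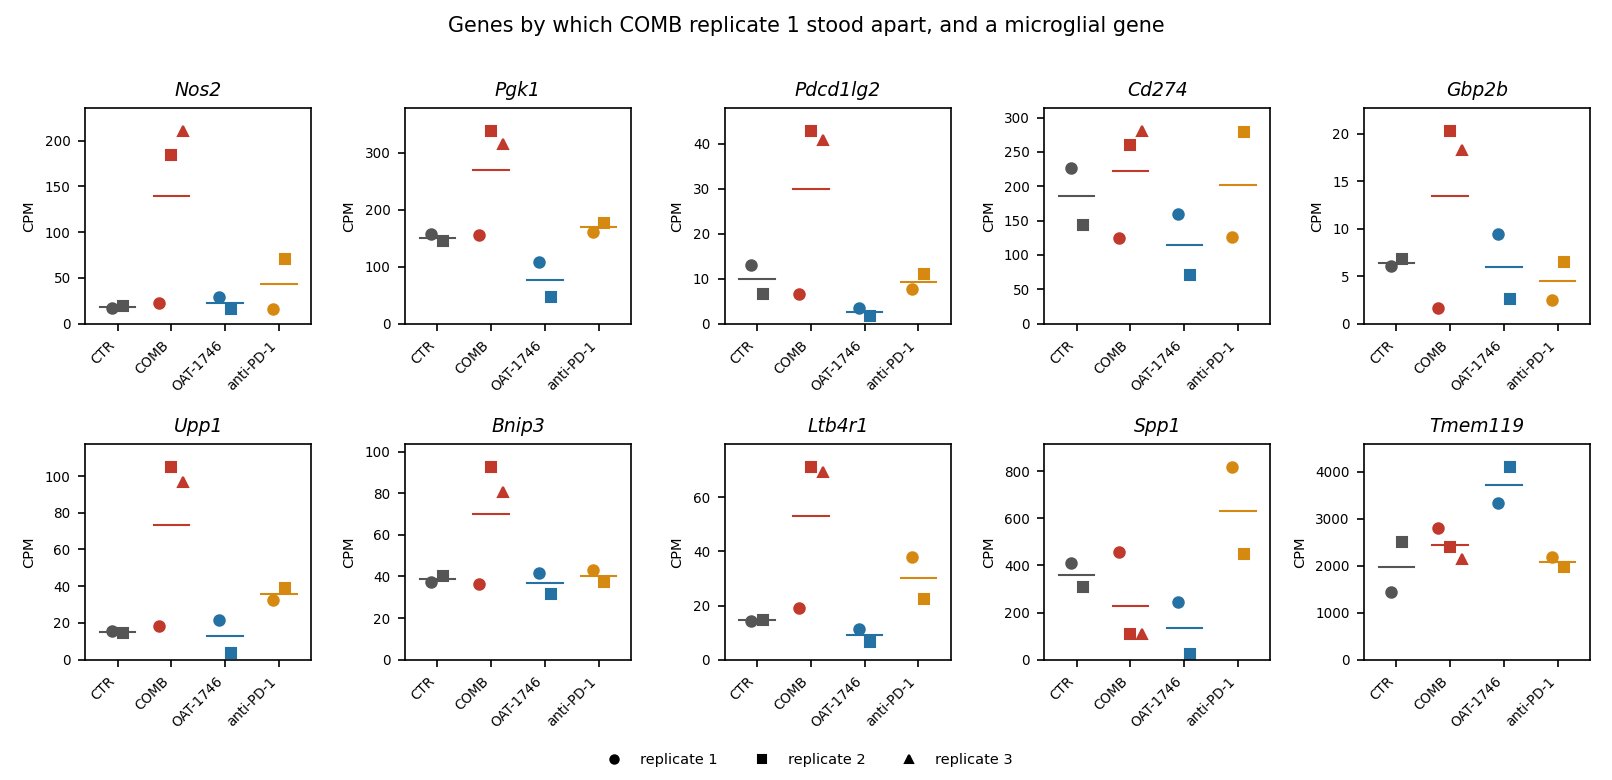
Level in CPM (linear axis from 0) of 10 genes in each library by group, with the marker shape giving the replicate and the line the group mean. COMB replicate 1 lies near the CTR points for Nos2, Pgk1, Upp1 and Bnip3, where COMB replicates 2 and 3 lie far above, and for Spp1 COMB replicate 1 lies far above the other COMB libraries.

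The 113 genes that lay at least 1 log2 unit lower in COMB replicate 1 included 5 of 15 interferon-inducible GTPases (GBP and IRG), 5 of 22 glycolysis and hypoxia genes, 4 of the 6 NK cell genes with enough level and 3 of 15 arginine genes, beside 1.20% of all genes considered. Gbp2b, a guanylate-binding protein, stood at 6.07 and 6.76 CPM in the CTR libraries and 1.63, 20.3 and 18.3 CPM in the COMB libraries, and Upp1, uridine phosphorylase 1, at 15.8 and 14.4 CPM in the CTR libraries and 18.4, 105 and 96.7 CPM in the COMB libraries. Gm15056, a gene without an assigned name, stood at 0.481 and 1.118 CPM in the CTR libraries and 0.742, 10.8 and 7.73 CPM in the COMB libraries. COMB replicate 1 lay below both CTR libraries in Gbp2b, between them in Gm15056 and slightly above them in Upp1. For Nos2, Pdcd1lg2, Gbp2b and Upp1 the log2 fold changes ran from 1.06 to 2.93 with large errors (SE 0.69 to 0.91) and edgeR adjusted p of 0.712 to 0.807. Of the 15 GBP and IRG genes, 1 (0 without CTR replicate 1, 0 without CTR replicate 2, 0 without COMB replicate 2 and 0 without COMB replicate 3) was higher and 0 lower (3.21% of all tested genes were higher and 3.37% lower), 0 lay wholly above or below CTR (12.1% and 15.8% of all tested genes), and the median was 0.38 (0.64 without COMB replicate 1, 0.17 without CTR replicate 2, 0.18 without COMB replicate 2 and 0.21 without COMB replicate 3), from sums of 2521 and 2168 CPM in CTR and 1852, 3467 and 3688 CPM in COMB. In the opposite direction, Spp1, the secreted phosphoprotein osteopontin, stood at 411 and 310.1 CPM in the CTR libraries and 458, 110.4 and 111 CPM in the COMB libraries, with COMB replicate 1 the highest and COMB replicates 2 and 3 the lowest libraries.

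Glycolysis was among the groups in which COMB replicate 1 resembled CTR. Pgk1, the glycolytic enzyme phosphoglycerate kinase 1, stood at 157 and 145 CPM in the CTR libraries and 155, 338 and 315 CPM in the COMB libraries, and Bnip3, a hypoxia-induced mitophagy receptor, at 37.5 and 40.3 CPM in the CTR libraries and 36.3, 92.5 and 80.7 CPM in the COMB libraries. Ndrg1, another gene induced by hypoxia, stood at 28 and 31.6 CPM in the CTR libraries and 33.9, 50.4 and 55.4 CPM in the COMB libraries. COMB replicate 1 lay within or near the CTR values and COMB replicates 2 and 3 above them. Of 22 glycolysis and hypoxia genes, 2 (11 without COMB replicate 1, 0 without CTR replicate 1, 0 without CTR replicate 2, 0 without COMB replicate 2 and 0 without COMB replicate 3) were higher and 0 lower at an unadjusted p under 0.05 (3.21% of all tested genes were higher and 3.37% lower). The median was 0.46 in COMB, -0.70 in OAT-1746 and 0.087 in anti-PD-1, from sums of 8472 and 7965 CPM in CTR and 7112, 13335 and 12739.8 CPM in COMB. Against OAT-1746, edgeR called 9 of the 22 higher in COMB (6.84% of all tested genes) and 1 lower (8.94%), and 0 of either without OAT-1746 replicate 2, COMB replicate 2 or COMB replicate 3. Without OAT-1746 replicate 1 or COMB replicate 1, 14 and 15 were called higher, and without the former 2 lower.

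Antigen presentation differed between replicates of both groups. The 10 MHC class II genes, led by the invariant chain Cd74, summed to 36484 and 21001 CPM in CTR and 16931, 34093 and 33201 CPM in COMB. CTR replicate 2 and COMB replicate 1 were the lower libraries. Of the 10, 1 (0 without CTR replicate 1, 0 without CTR replicate 2, 0 without COMB replicate 2 and 0 without COMB replicate 3) was higher and 0 lower against CTR (3.21% of all tested genes were higher and 3.37% lower), and the median was 0.033 (0.24 without COMB replicate 1, 0.44 without CTR replicate 1, -0.27 without CTR replicate 2, -0.10 without COMB replicate 2 and -0.062 without COMB replicate 3) in COMB and -1.31 in OAT-1746. The comparison of COMB with OAT-1746 called 6 of 10 higher in COMB (6.84% of all tested genes) and 0 without OAT-1746 replicate 2, COMB replicate 2 or COMB replicate 3, with a median of 1.15. Of 15 genes of MHC class I processing, led by B2m, 0 were higher and 0 lower. Of 13 complement genes, 0 (2 without CTR replicate 1) were higher and 1 (0 without CTR replicate 1 and 0 without CTR replicate 2) lower.

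**Figure D4:**
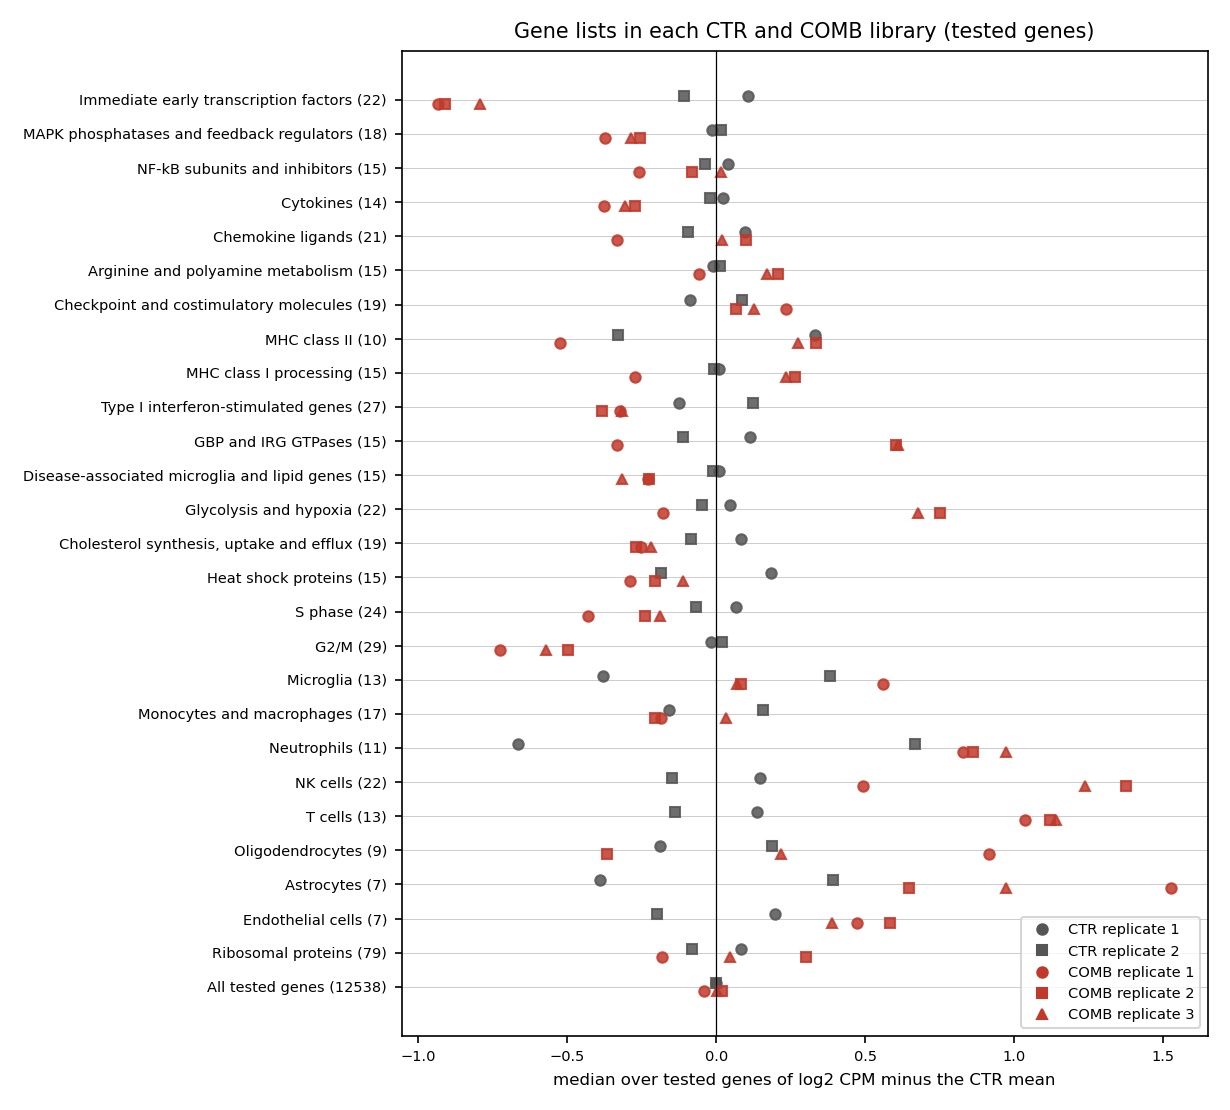
Median log2 CPM of 27 gene lists in each CTR and COMB library, relative to the mean of the CTR libraries. The immediate early transcription factors lie near -0.93, -0.91 and -0.79 in the COMB libraries, and the glycolysis list at -0.18, 0.75 and 0.68.

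The lists of proliferation, type I interferon and sterol genes had medians below 0 in COMB, with 0 to 2 genes of each lower at an unadjusted p under 0.05 (3.37% of all tested genes were). Of 29 genes of G2 and mitosis, 0 were higher and 1 lower, 18 lay below both CTR libraries (15.8% of all tested genes did), and the median was -0.51 in COMB, -1.51 in OAT-1746 and -0.74 in anti-PD-1. The gene in that count was Anln, which encodes the cytokinesis protein anillin, with 9.13 and 8.65 CPM in the CTR libraries and 5.93, 4.36 and 5.60 CPM in the COMB libraries. The proliferation marker Mki67 stood at 10.8 and 6.41 CPM in the CTR libraries and 2.74, 1.06 and 3.76 CPM in the COMB libraries. Of 24 S phase genes, 0 were higher and 0 lower, 12 lay below both CTR libraries, and the median was -0.27 (-0.12 without CTR replicate 1). Of 27 type I interferon-stimulated genes, 0 were higher and 0 lower, 12 lay below both CTR libraries, and the median was -0.32 in COMB, -0.65 in OAT-1746 and 0.53 in anti-PD-1. Isg15, a ubiquitin-like protein, stood at 215 and 248 CPM in the CTR libraries and 200.2, 212 and 199 CPM in the COMB libraries, and 549 and 454 CPM in anti-PD-1. Ifit3b, an interferon-induced RNA-binding protein gene, overlapped, with 27.9 and 43.9 CPM in the CTR libraries and 28, 17.4 and 17.8 CPM in the COMB libraries. Of 19 genes of cholesterol synthesis, uptake and efflux, 0 were higher and 2 (1 without COMB replicate 1, 0 without CTR replicate 1, 4 without CTR replicate 2, 1 without COMB replicate 2 and 1 without COMB replicate 3) lower, 10 lay below both CTR libraries, and the median was -0.21 (-0.13 and -0.42 when CTR replicates 1 and 2, respectively, were left out). Cyp51, an enzyme of sterol synthesis, stood at 49.0 and 43.6 CPM in the CTR libraries and 33.5, 30.4 and 32.1 CPM in the COMB libraries, with no overlap between the groups.

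Heat shock, ribosomal and mitochondrial genes had medians close to 0 or differed between replicates. Of 15 heat shock genes, 1 was higher and 1 (0 without CTR replicate 1, 4 without CTR replicate 2 and 0 without COMB replicate 2) lower (3.21% of all tested genes were higher and 3.37% lower), with a median of -0.24 (0.017 and -0.47 when CTR replicates 1 and 2, respectively, were left out). Hspa1a, an inducible HSP70, stood at 24.9 and 8.23 CPM in the CTR libraries and 5.41, 6.34 and 6.73 CPM in the COMB libraries, and at 20.7 and 134 CPM in OAT-1746. The small heat shock gene Hspb1 lay the other way, with 1.14 and 0.882 CPM in the CTR libraries and 2.67, 3.17 and 2.98 CPM in the COMB libraries. Of 79 ribosomal protein genes, 2 were higher and 0 lower, with a median of 0.057 (0.16 without COMB replicate 1, 0.16 without CTR replicate 1, -0.036 without CTR replicate 2 and -0.072 without COMB replicate 2), and Rpl39 among them stood at 175 and 133 CPM in the CTR libraries and 224, 330.2 and 265 CPM in the COMB libraries, a log2 fold change of 0.83 (SE 0.20) with an edgeR adjusted p of 0.673. Reads of Rpl39 may be shared with copies of the gene elsewhere in the genome. The 7 tested genes of the mitochondrial genome summed to 12668 and 10114 CPM in CTR and 12921, 6392 and 7649 CPM in COMB, highest in COMB replicate 1 among the COMB libraries.

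Several further genes lay apart without belonging to these groups. Cebpb, a transcription factor of myeloid cells chosen after its values were seen, stood at 233 and 133 CPM in the CTR libraries and 357, 455 and 537 CPM in the COMB libraries, and at 557 and 756 CPM in anti-PD-1 and 180.0 and 93.7 CPM in OAT-1746. Ltb4r1, the receptor of leukotriene B4, stood at 14.4 and 14.6 CPM in the CTR libraries and 18.9, 71.1 and 69.3 CPM in the COMB libraries, with COMB replicate 1 near CTR. Tmem204, a membrane protein of vascular cells, stood at 10.1 and 11.1 CPM in the CTR libraries and 26.1, 20.3 and 18.3 CPM in the COMB libraries, and at 30.3 and 37.3 CPM in OAT-1746, where it was higher than in COMB (edgeR adjusted p 0.0459, a call lost without COMB replicate 3). All COMB libraries lay above CTR in these 3 genes. Their log2 fold changes were 1.30 (SE 0.35), 1.88 (SE 0.53) and 1.03 (SE 0.20), with edgeR adjusted p of 0.673, 0.673 and 0.631, and DESeq2 called all 3 (adjusted p 0.0418, 0.0415 and 0.0139, alternatives 0.0418 to 1.000, 0.0415 to 1.000 and 0.0139 to 1.000). Tmeff1, a transmembrane protein with follistatin domains, stood at 3.84 and 1.000 CPM in the CTR libraries and 6.75, 13.7 and 15.1 CPM in the COMB libraries, and the serine protease gene Htra1, chosen after its values were seen, at 5.77 and 10.2 CPM in the CTR libraries and 18.5, 18.4 and 18.2 CPM in the COMB libraries. Ifnlr1, a receptor subunit for type III interferon, had 39 and 30 counts in CTR and 6, 4 and 2 in COMB, and Scara3, a scavenger receptor gene, 3 and 3 and 23, 27 and 15. The metalloproteinase genes Adam8 and Mmp12 stood at 71.5 and 84.3 CPM and 25.3 and 9.18 CPM in CTR and at 93.6, 270.0 and 278 CPM and 34.9, 57.7 and 53.4 CPM in COMB, Adam8 with COMB replicate 1 near CTR.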

How the data were processed

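The deposited table holds a raw count of read pairs for each gene and library. The authors used Trimmomatic 0.36 for trimming and STAR 2.6.1b for alignment to mm10, marked duplicates with Picard 2.17.1 and counted with HTSeq 0.11.1 in reverse stranded mode at a minimum mapping quality of 10. The 9 libraries were grouped by title; anti-PD-1 replicate 2, whose treatment label names another antibody target, was kept as anti-PD-1. Of 53801 genes, 53620 were in GENCODE M21, 21890 of them protein-coding, and 12538 passed edgeR's filterByExpr (minimum count 10). In R 4.3.3, edgeR 4.0.16 was used with TMM scaling and a quasi-likelihood fit of 4 group means over all 9 libraries (common coefficient of variation 0.214, 5 residual degrees of freedom). Calls used a Benjamini-Hochberg adjusted p under 0.05. With 2 or 3 libraries a group, a call rests on spread shared between groups and genes. Replicate numbers do not pair the libraries across groups.

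Genes named are those called against CTR by edgeR, DESeq2 or the fit of CTR and COMB alone (up to 15 per tool and direction), the 10 highest and 10 lowest log2 fold changes at an unadjusted p under 0.05 with a mean of at least 5 CPM and no overlap, up to 5 members of each list by p and its 3 most abundant, Nos2, Pdcd1, Cd274, Itgam and Ptprc, and the 5 genes farthest above and below in each COMB library. Some genes that this rule gives are not reported here. Cebpb, Htra1, Gfap and Ly6c2 fall outside this and were chosen after their values were seen. The members and the 37 lists were chosen with earlier results of these data known.

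Alternatives were DESeq2 1.42.0, DESeq2 size factors in edgeR, a fit scaled by library size only, omission of the filter on low counts, a stricter filter (10 counts in each of the 9 libraries), all annotated genes, the replicate number as a block, robust estimation, limma 3.58.1 voom with quality weights, a fit of the groups compared alone, and leaving out each replicate. Leaving out replicates in the comparisons of COMB with OAT-1746 and with anti-PD-1 was chosen after seeing the data. Promoter windows are from RefSeq. The steps were tested on simulated data. Python 3.11.15 with matplotlib 3.10.9 drew the figures. The study's other experiments were not analysed here.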

Additional observations from a re-analysis of the deposited data

Results flagged for a closer look

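In 17 of the genes described above, all COMB libraries lay on one side of both CTR libraries and both OAT-1746 libraries on the other. These genes had been chosen for the text before, and of all 12538 tested genes 427 (3.41%) lay below CTR in COMB and above it in OAT-1746 and 200 (1.6%) the other way. The values here are log2 differences of COMB minus OAT-1746, with the adjusted p of edgeR's quasi-likelihood test of that difference, which is no test of the pattern, as the genes were picked by it. Of the 17, 11 lay below CTR in COMB and above it in OAT-1746. Among transcription factors and early genes these were Egr1 (-3.74, adjusted p 0.00148), Jun (-2.29, adjusted p 0.00528), Ier2 (-1.67, adjusted p 0.00322) and Junb (-1.25, adjusted p 0.0202). Among genes of NF-κB and of its targets they were Nfkbiz (-3.02, adjusted p 0.00322), Nfkbid (-2.94, adjusted p 0.0143), Rel (-1.89, adjusted p 0.0143) and Tnfaip3 (-1.36, adjusted p 0.0239). The others were Tnf (-2.02, adjusted p 0.00528), Zfp36 (-1.26, adjusted p 0.0160) and Cd276 (-0.62, adjusted p 0.0399). The remaining 6 lay above CTR in COMB and below it in OAT-1746: Tnfrsf9 (3.30, adjusted p 0.0256), Mmp12 (3.07, adjusted p 0.0282), Adam8 (2.97, adjusted p 0.0288), Ltb4r1 (2.56, adjusted p 0.0281), Rpl39 (1.76, adjusted p 0.00849) and Ass1 (1.76, adjusted p 0.114). For Ass1, COMB replicate 1 and CTR replicate 2 lay at the same level, both 295 CPM. Without COMB replicate 3, only Egr1, Ier2 and Nfkbiz had an adjusted p under 0.05. COMB and OAT-1746 are compared with the same CTR libraries, so a CTR library that lies high or low moves both fold changes.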

How the results depend on the processing

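Of 1250 log2 fold changes against CTR under alternatives, for 84 genes, 1249 kept their sign; Cd274 reversed to -0.035 without CTR replicate 2 (range with a library left out -0.035 to 0.65). Of 554 list medians under alternatives, 51 changed sign, none of them in the immediate early, G2/M, NK cell, astrocyte or glycolysis lists, while that of the T cell list (1.22) became -0.012 with the stricter filter. Between COMB and CTR, edgeR's 0 calls became 35 with DESeq2, 2 without the filter on low counts, 2 with limma voom and 5 with the CTR and COMB libraries alone, and stayed at 0 with DESeq2 size factors, library size only, the stricter filter, all annotated genes, robust estimation, the replicate block and each library left out (0 to 0). The count at an unadjusted p under 0.05 (825) became 1831 with voom (869 higher, 962 lower), 329 with the replicate block (192 and 137) and 448 to 986 with a library left out, and split into 458 higher and 340 lower with DESeq2 size factors. Between COMB and OAT-1746, the 1979 calls became 3062 with DESeq2, 2003 with DESeq2 size factors, 2 with the replicate block and 5 to 4033 with a library left out. Between COMB and anti-PD-1, edgeR's 0 calls (907 genes at an unadjusted p under 0.05) became 47 with DESeq2, stayed at 0 with DESeq2 size factors and the replicate block, and ranged from 0 to 5 with a library left out. The cause was not tested. Replicate numbers do not pair the libraries. With 2 CTR libraries, small differences may have been missed, and genes with few counts, such as those of T cells, rest on counting error as well.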
